A study of Homo sapiens with 33 samples.

Results

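C/D box small nucleolar RNAs (snoRNAs) were described here in the RNA of K562, a human erythroleukemia cell line, from which EZH2 RNA immunoprecipitation was performed. The genes were taken by name, as every entry of the expression table called SNORD with a number and at most 1 further letter, without the SNORD115 and SNORD116 clusters. This rule used no measured value and gave 242 of the 58293 entries of the table, under 165 names. The only library with gene-level values was the RIP-seq input, total RNA of wild-type K562 cells with no antibody used, and it had no replicate. For RIP-seq the cells had been fixed with formaldehyde and sonicated. The other samples of the study, which were immunoprecipitated RNA, fractionated RNA, chromatin and chromosome conformation libraries, carried no gene-level values used here apart from 4 read counts per listed EZH2 RNA fragment (cytoplasmic, nuclear, nuclear polyA+ and nuclear polyA−).

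C/D box snoRNAs are short nucleolar RNAs that pair with ribosomal or spliceosomal RNA and direct the methylation of a ribose in it, while a few take part in the cleavage of the ribosomal precursor. Most are cut out of the introns of host genes, many of which encode ribosomal proteins or nucleolar proteins, or are non-coding small nucleolar RNA host genes (SNHG). The name comes from box C near the 5′ end and box D near the 3′ end, which are held together and bound by 15.5K (SNU13), NOP56, NOP58 and the methyltransferase fibrillarin (FBL).

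Expression was given as FPKM, the number of fragments scaled to the length of the transcript and to the depth of the library, with a lower and an upper bound that lay 2 SD from the estimate, the lower one cut at 0. These bounds cover the error of the estimate within 1 library and not the spread between cultures, so that no test between conditions could be made. Single-exon entries of the same table placed the depth of the library at about 15300000 fragments. The library held the mRNAs of the labelled cell line, with HBG2, a fetal globin, at 218 FPKM (206 to 230), HBE1, an embryonic globin, at 132 FPKM (124 to 140), TFRC, the transferrin receptor, at 171 FPKM (160 to 182) and GATA1, an erythroid transcription factor, at 15.3 FPKM (13.5 to 17.0).

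Part of the sequences behind the names carried both boxes. Box C was searched as NTGATGA in the first 20 bases and box D as CTGA in the last 20 bases of the transcribed strand, N being any base. Of the 242 entries, 128 (52.9%) had box C, 203 (83.9%) had box D and 112 (46.3%) had both. Of 419 H/ACA box RNA sequences, which belong to the other large class of snoRNAs, 0 had both, and of 484 windows of equal length placed directly before and after each snoRNA 0 had both, with CTGA alone in 9.31% and 9.30%. With only the inner letters TGATG asked for in place of box C, 154 snoRNAs (63.6%), 0 H/ACA box RNAs and 1 window (0.207%) had both. The name did not stand for 1 kind of gene: 179 entries still carried a SNORD name in GENCODE 44, and 63 were listed there under their identifier only. The boxes were found together in 98 of the 179 (54.7%) and in 14 of the 63 (22.2%).

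The 4 snoRNAs with the highest FPKM are shown first, as they were the ones that a ranking by FPKM put at the top. All are guides for ribosomal RNA, SNORD24 and SNORD99 for the large subunit and SNORD27 and SNORD57 for the small subunit. Capitals mark TGATG near the start and CTGA near the end, and the 5′ end is on the left. SNORD99 held no TGATG in its first 20 bases.
SNORD24 (chr9:133349396-133349470, plus strand, GRCh38): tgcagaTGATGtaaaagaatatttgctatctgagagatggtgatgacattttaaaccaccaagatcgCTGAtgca
SNORD99 (chr1:28578749-28578822, minus strand): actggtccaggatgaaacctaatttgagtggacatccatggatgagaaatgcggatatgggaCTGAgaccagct
SNORD27 (chr11:62855012-62855083, minus strand): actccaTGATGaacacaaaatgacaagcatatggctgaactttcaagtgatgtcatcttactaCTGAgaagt
SNORD57 (chr20:2656939-2657010, plus strand): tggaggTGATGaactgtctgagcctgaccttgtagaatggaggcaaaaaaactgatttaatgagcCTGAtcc

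Of the 242 C/D box RNAs, 59 (24.4%, 95% Wilson interval 19.4 to 30.2) reached an FPKM of 1, beside 21.8% of all entries of the table. Here and below such intervals treat entries as independent, which those of 1 host are not, and do not cover the spread between cultures. A lower bound above 0 was given for 23 (9.50%), beside 26.5% of all entries. Another 8 had an FPKM above 0 but under 1, with upper bounds between 35.6 and 156 FPKM, and 175 were listed at 0. All 59 were among the 179 entries with a SNORD name in GENCODE 44, where they made up 33.0% (26.5 to 40.1). None of the 63 others had an FPKM above 0 in this library. The median over all 242 was 0, and the median of the 59 was 94.7 FPKM with quartiles at 19.8 and 262. Among the 12726 entries of the whole table at an FPKM of 1 or more the median was 5.77.

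SNORD24 had 2139 FPKM (bounds 1435 to 2844) and SNORD99 had 1904 FPKM (1237 to 2570), and these bounds overlapped. SNORD27 followed at 1171 FPKM (559 to 1784), SNORD57 at 919 FPKM (368 to 1471) and SNORD87, a guide for the large subunit, at 758 FPKM (470 to 1045). The next 5 had wide bounds that overlapped each other. SNORD105B stood at 551 FPKM (245 to 857), SNORD55 at 542 FPKM (223 to 860) and SNORD33 at 491 FPKM (237 to 745). SNORD34 stood at 456 FPKM (40.7 to 871) and SNORD56 at 410 FPKM (45.1 to 775). In the order of these 10 no neighbours were apart by their bounds. The 5 highest snoRNAs held 49.1% of the FPKM summed over all 242.

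**Figure D1:**
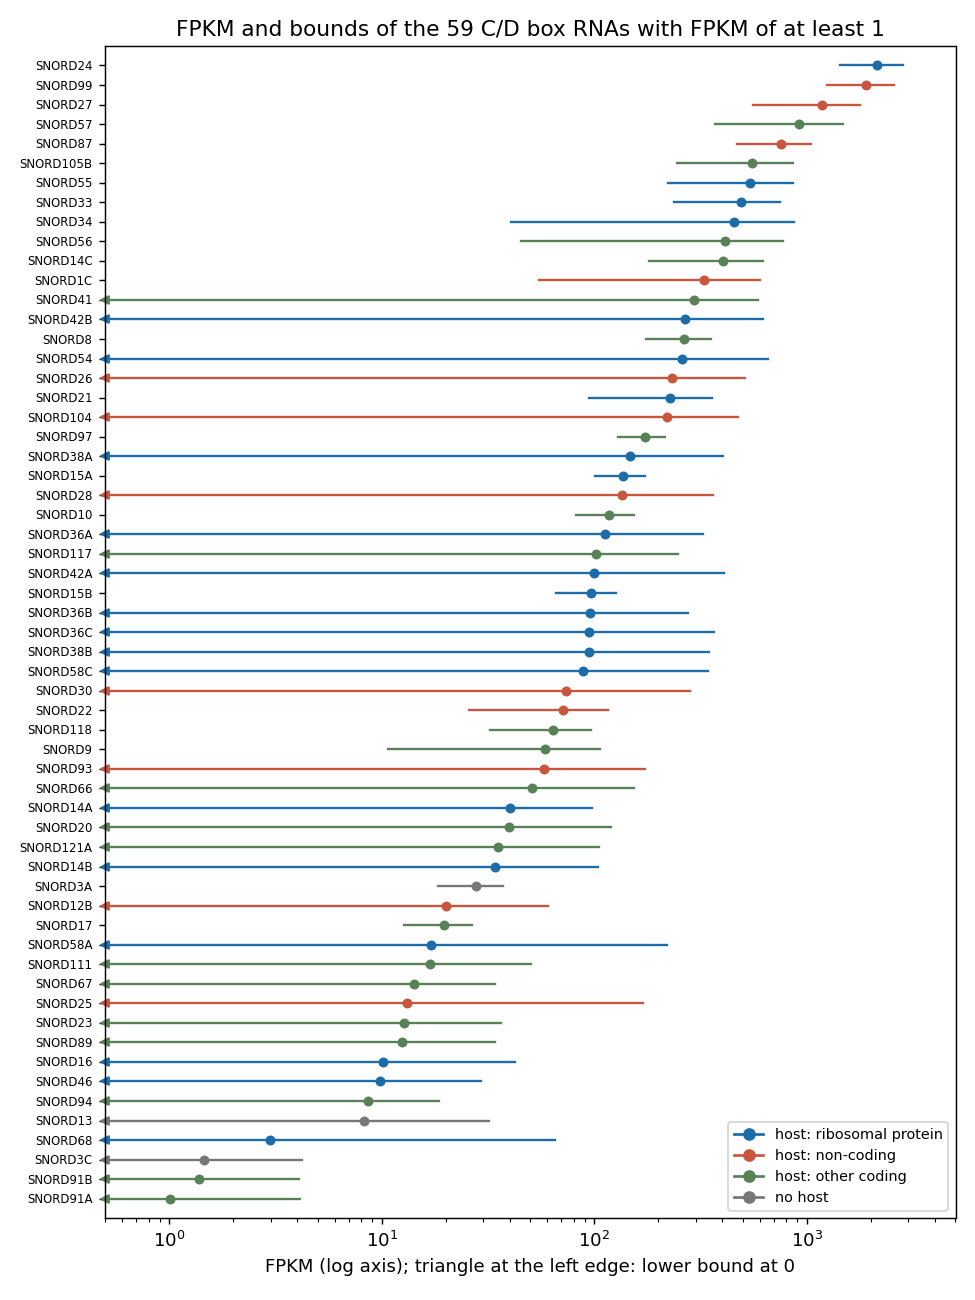
FPKM (log axis) of each of the 59 C/D box RNAs with an FPKM of at least 1 as a point, with the deposited lower and upper bounds as a line, coloured by the class of the host gene. A triangle at the left edge stands for a lower bound at 0; only 23 of the 59 lines end right of it, among them those of the 12 highest.

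A high FPKM did not mean many fragments at these lengths. The locus spans of the 242 snoRNAs ran from 58 to 699 bp with a median of 75 bp. The value of 1 fragment was read from 477 other entries of at most 250 bp whose bounds gave a whole number of fragments. It was 109 FPKM at 64 bp, 73.3 FPKM at 70 bp, 2.53 FPKM at 142 bp and 0.593 FPKM at 237 bp, a 183-fold range. By length alone 1 fragment at 70 bp would have been worth 0.934 FPKM, so that the values given at this span were 78.5 times higher. The libraries had been kept at 250 to 500 bp, adapters included, and FPKM by the tool used divides by a length corrected for the sizes of the fragments. How much of the short RNAs this selection left out was not tested.

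Divided by this value, the 57 snoRNAs at an FPKM of 1 or more and of at most 250 bp held 0.0955 to 68.3 fragments each with a median of 2.47, and 621 in all. Values need not be whole, since the tool divides fragments among overlapping transcripts. At most 3 fragments lay behind 33 of the 57 (57.9%), and 18 had at least 10. Ranked by fragments, the order was led by longer RNAs. SNORD97, which guides the methylation of a transfer RNA, had 68.3 fragments at 172 FPKM (129 to 216). SNORD15A, a guide for the large subunit, had 62.8 fragments at 137 FPKM (101 to 173). SNORD10 had 46.5 fragments at 118 FPKM (81.5 to 154) and SNORD15B had 42.0 at 96.0 FPKM (66.1 to 126). SNORD24 came only after these, with 39.4 fragments. Of the 10 highest by FPKM, 3 were also among the 10 highest by fragments, and the 5 highest by FPKM held 22.2% of the fragments. Over the 57, log2 FPKM and log2 fragments gave Pearson's r = 0.63 and Spearman's rho = 0.66; both come from 1 library and are linked by construction.

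These longer RNAs are printed because they carried the most fragments. SNORD97 and SNORD15A differ in how well their ends match the boxes searched, as SNORD97 held neither TGATG in the first 20 bases nor CTGA in the last 20.
SNORD97 (chr11:10801467-10801608, minus strand): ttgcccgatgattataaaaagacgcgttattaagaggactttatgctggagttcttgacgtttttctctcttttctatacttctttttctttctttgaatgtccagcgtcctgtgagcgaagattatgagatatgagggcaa
SNORD15A (chr11:75400391-75400538, plus strand): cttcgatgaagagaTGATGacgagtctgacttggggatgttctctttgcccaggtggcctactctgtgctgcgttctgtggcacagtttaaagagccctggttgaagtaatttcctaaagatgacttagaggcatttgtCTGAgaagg

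The bounds followed the fragments. The relative width, the distance from the FPKM to the upper bound as a share of the FPKM, had a median of 142% over the 59 snoRNAs and exceeded 100% in 36 (61.0%). The median was 284% for the 8 under 70 bp, 115% for the 19 of 70 to 79 bp, 58.9% for the 7 of 80 to 89 bp, 200% for the 9 of 90 to 109 bp and 56.9% for the 14 of 110 to 250 bp. Among other entries at an FPKM of 1 or more it was 200% for the 7 under 70 bp, 142% for the 371 of 110 to 250 bp and 23.2% for the 12158 over 250 bp. The narrowest bounds belonged to SNORD97 with a relative width of 25.2%, SNORD15A with 26.1%, SNORD10 with 30.6%, SNORD15B with 31.1% and SNORD24 with 32.9%. The widest belonged to SNORD68 with 2093%, SNORD25 with 1193%, SNORD58A with 1191%, SNORD16 with 320% and SNORD91A with 312%, each of which held 1 fragment or less.

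The place in the host gene went with how the fragments were shared. By GENCODE 44, 140 of the 179 snoRNAs with a SNORD name lay in an intron of the canonical transcript of their host, and 78 of these also overlapped an exon of another transcript of the same host. Of the 18 at an FPKM of 1 or more that lay in intron only, 16 held a number of fragments within 0.01 of a whole number. Of the 36 that also overlapped an exon, 7 did, and in 29 the bounds stood for under 90% of the fragments, against 2 of the 18. Where a snoRNA and an exon of its host overlap, their reads cannot be told apart with certainty. The intronic snoRNAs with a SNORD name ended a median of 137.5 bp before the next exon of their host, and 49 of the 140 (35.0%) lay 60 to 90 bp from it. This distance was a median of 89.5 bp in the 54 at an FPKM of 1 or more and 327 bp in the 78 listed at 0. In the 24 intronic entries without a SNORD name in GENCODE 44 it was 10974 bp.

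Each snoRNA was then compared with its host gene, the shortest entry on the same strand that contains it and is not itself a small RNA gene. A host was found for 181 snoRNAs, in 105 genes. Of the 30 snoRNAs whose host was under an FPKM of 1, 0 had an FPKM above 0, and 56 of the 151 with a host at 1 or more reached 1 (37.1%, 29.8 to 45.0). By host class, 22 of 43 snoRNAs in ribosomal protein genes reached an FPKM of 1 (51.2%, 36.8 to 65.4), 12 of 50 in non-coding hosts (24.0%, 14.3 to 37.4), 22 of 88 in other coding genes (25.0%, 17.1 to 35.0) and 3 of 61 without a host (4.92%, 1.69 to 13.5). Counted once per snoRNA, the hosts themselves had medians of 198, 9.55 and 46.5 FPKM for ribosomal protein, non-coding and other coding genes, and the part of these levels in the shares was not tested. Within the 179 with a SNORD name, the shares were 51.2%, 32.4% and 29.7% for these 3 classes. The snoRNAs that reached 1 had a median of 97.8 FPKM in ribosomal protein genes, 177 FPKM in non-coding hosts and 54.8 FPKM in other coding genes, with wide and overlapping ranges.

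The bounds of 11 snoRNAs lay wholly above those of their host (6.08% of 181), beside 2.16% of the 7781 other entries of the table nested in a longer gene and 0.899% of those of at most 250 bp. The bounds of 20 lay wholly below (11.0%), beside 19% and 3.15%. These shares count entries at 0. Among entries at an FPKM of 1 or more, 11 of 56 snoRNAs (19.6%) lay above and 15 (26.8%) below, beside 12.2% and 31% of the 229 other nested entries of at most 250 bp. Of the 20 below, 16 held at most 3 fragments. With an exact Poisson interval of the fragments in place of the bounds 13 stayed below and 15 lay above. The bounds of another 33 overlapped with those of the host. Among the 56 that reached an FPKM of 1, 26 were higher than the host. The median log2 ratio of the 56 to the host, after adding 1 FPKM to each, was −0.24, beside −0.09 for those 229 entries. The lengths weigh on this comparison, as 1 fragment at 70 bp was worth 78.5 times its value by length alone. The host genes are longer than the snoRNAs they contain. How many snoRNAs would lie above or below the host without this correction was not tested.

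The 11 above their host came from all 3 host classes. Only SNORD99 and SNORD105B of them lay in intron only. The others overlapped an exon of the host, where reads of snoRNA and host cannot be told apart with certainty. SNORD105B, a guide for the small subunit, had 551 FPKM (245 to 857) in PPAN, a ribosome biogenesis gene, at 12.4 FPKM, a log2 ratio of 5.37. SNORD99 had 1904 FPKM in SNHG12 at 48.2 FPKM (5.28), and SNORD8, a guide for U6 spliceosomal RNA, had 265 FPKM (175 to 356) in CHD8, a chromatin remodeller, at 12.9 FPKM (4.26). SNORD24 exceeded RPL7A by 3.89, SNORD27 exceeded SNHG1 by 3.71 and SNORD87 exceeded SNHG6 by 3.34 on the log2 scale. SNORD118, SNORD1C, SNORD57, SNORD33 and SNORD97 completed the group, with log2 ratios of 3.40, 3.34, 2.67, 1.31 and 0.59. The highest ratio of all, 6.19 for SNORD104 in SNHG25, came from 220 FPKM or 3.00 fragments with bounds from 0 to 474, which overlapped those of the host at 2.03 FPKM. SNORD41 in TNPO2 likewise had a ratio of 4.17 from 4.00 fragments.

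At the other end, SNORD68, in the ribosomal protein gene RPL13, had 2.97 FPKM against 117 (log2 ratio −4.89), and SNORD16, in RPL4, had 10.1 FPKM against 308 (−4.80). SNORD91A and SNORD91B in TSR1 had 1.00 and 1.38 FPKM against 25.2 (−3.71 and −3.46). Each of these 4 rested on 2.00 fragments or fewer. Below the host with many fragments were SNORD15B, at 96.0 FPKM against 183 FPKM for RPS3, SNORD10 at 118 FPKM against 167 for EIF4A1, and SNORD17 at 19.6 FPKM (12.7 to 26.4) against 41.3 for SNX5. SNORD15A, at 137 FPKM in RPS3, was below by the bounds, but its exact Poisson interval of 105 to 175 FPKM overlapped the bounds of the host from 173 to 193 FPKM. Of the snoRNAs named here, SNORD68, SNORD16, SNORD10 and SNORD15A also overlap an exon of the host.

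**Figure D2:**
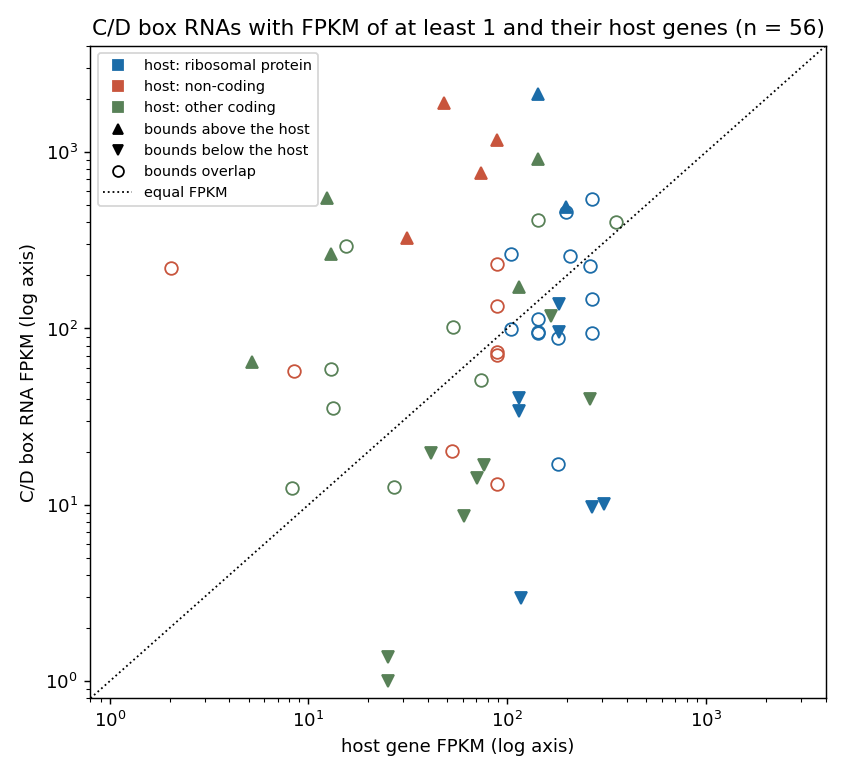
FPKM of the 56 C/D box RNAs with a host and an FPKM of at least 1 against the FPKM of the host gene, both on log axes, coloured by host class; triangles mark bounds wholly above or below those of the host, open circles overlapping bounds, and the dotted line equal FPKM. The 11 upward triangles span hosts from 5.19 to 198 FPKM.

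For most snoRNAs listed at 0, the depth did not show a level below that of the host. Of the 144 snoRNAs with a SNORD name and a host at an FPKM of 1 or more, 80 were listed at 0. Of these 80, 37 lay in intron only, and there 3 fragments, the most that a count of 0 allows, were worth 21.2 to 284 FPKM with a median of 120 (counting error only), while their hosts had a median of 53.2 FPKM. This limit lay above the FPKM of the host in 29 of the 37 and under it in 8. In HSPA8, a heat shock protein gene at 354 FPKM, it was 87.6 FPKM for SNORD14E, and in RPL37 at 266 FPKM it was 120 FPKM for SNORD72. SNORD83A in RPL3 (47.6 against 176 FPKM) and SNORD51 in EEF1B2 (120 against 139 FPKM) were further cases. Another 36 of the 80 overlapped an exon of the host, where fragments can be given to the host transcript and a value of 0 sets no such limit. The GC content was a median of 44.6% in the 56 that reached an FPKM of 1 and 41.8% in the 80, and the spans were a median of 80 and 77 bp.

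SnoRNAs of 1 host come from 1 precursor, and 10 hosts held at least 4 of them, 48 in all. Of these 48, 21 reached an FPKM of 1, and of 39 pairs within a host with both above 0, 12 were apart by their bounds. With both at an FPKM of 1 or more it was 9 of 30, as 3 of the 12 involved an entry with an FPKM under 1. The share among pairs of other entries nested in 1 host was not computed, so that these counts are a description only. In RPL7A, a large-subunit protein gene at 143 FPKM (135 to 152), SNORD24 had 39.4 fragments, whereas SNORD36A had 113 FPKM (0 to 325), SNORD36B 95.7 FPKM (0 to 277) and SNORD36C 94.7 FPKM (0 to 364), which is 1.84, 1.66 and 0.998 fragments. SNORD24 was thus apart from each of the 3, which overlapped each other. All 4 lie in introns of the canonical transcript of RPL7A on chromosome 9, 68 to 89 bp before the next exon, and each carries TGATG and CTGA. Each also overlaps an exon of another RPL7A transcript, so that the division of fragments among them and the host is not certain.
SNORD36A (chr9:133350456-133350528, plus strand): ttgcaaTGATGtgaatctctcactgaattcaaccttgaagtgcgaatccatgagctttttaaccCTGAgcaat
SNORD36B (chr9:133350095-133350168, plus strand): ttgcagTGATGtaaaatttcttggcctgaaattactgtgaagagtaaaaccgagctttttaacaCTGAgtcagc
SNORD36C (chr9:133350847-133350912, plus strand): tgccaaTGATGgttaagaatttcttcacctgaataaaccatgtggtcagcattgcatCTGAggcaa

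In SNHG1, a non-coding host at 88.4 FPKM (82.1 to 94.8), 6 of 7 snoRNAs reached an FPKM of 1. SNORD27 at 1171 FPKM was apart from SNORD26 at 232 FPKM (0 to 511), SNORD28 at 134 FPKM (0 to 363), SNORD30 at 73.3 FPKM (0 to 281), SNORD22 at 71.1 FPKM (25.7 to 116) and SNORD25 at 13.1 FPKM (0 to 169). SNORD22, whose RNA takes part in processing of the small-subunit precursor, had 17.7 fragments, nearly as many as the 18.0 of SNORD27, at a span of 126 bp against 72 bp. A further entry named SNORD22 in the same host was listed at 0. All 7 also overlap an exon of another SNHG1 transcript, so that here too the division of fragments is not certain.

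In RPL13A at 198 FPKM, SNORD33 and SNORD34 reached 491 and 456 FPKM, while SNORD32A and SNORD35A were under 1 with upper bounds of 62.1 and 54.8 FPKM, below the lower bound of SNORD33 at 237. Each of these overlaps an exon of another RPL13A transcript, where fragments can be given to the host. The upper bounds of SNORD32A and SNORD35A therefore set no certain limit. In NOP56, whose protein is part of the C/D box particle itself, at 143 FPKM, SNORD57 and SNORD56 were detected and SNORD86 and SNORD110 were listed at 0. In RPL23A at 105 FPKM, SNORD42B and SNORD42A stood at 266 FPKM (0 to 620) and 99.6 FPKM (0 to 407), and SNORD4A and SNORD4B were listed at 0. In RPL4 at 308 FPKM, SNORD16 stood at 10.1 FPKM (0 to 42.4), and SNORD18A, SNORD18B and SNORD18C were listed at 0.

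No snoRNA reached an FPKM of 1 in the other 3 hosts. NOP58, at 61.6 FPKM (56.7 to 66.5), holds SNORD11, SNORD11B and 2 entries named SNORD70. GNL3, a nucleolar GTPase gene at 61.0 FPKM (55.6 to 66.4), holds 6 entries named SNORD19, SNORD19B or SNORD69. SNHG23, at 0.896 FPKM (0 to 3.19), holds 6 entries named SNORD113. At the spans of the NOP58 and GNL3 snoRNAs 3 fragments were worth 64.2 to 249 FPKM, more than the FPKM of the host. This value sets no limit for those that overlap an exon of the host, among them SNORD19B and an entry named SNORD70.

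PPAN holds SNORD105 and SNORD105B, which are 65.9% identical and, unlike the snoRNAs of RPL7A, lie in intron only. SNORD105B had 13.0 fragments, and SNORD105 was listed at 0, where 3 fragments would be worth 87.6 FPKM, below the lower bound of SNORD105B at 245.
SNORD105 (chr19:10107651-10107735, plus strand): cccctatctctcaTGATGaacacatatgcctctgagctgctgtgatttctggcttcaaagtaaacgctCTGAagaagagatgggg
SNORD105B (chr19:10109757-10109835, plus strand): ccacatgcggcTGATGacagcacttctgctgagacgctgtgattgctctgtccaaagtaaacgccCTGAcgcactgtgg

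Of the RNAs that act in cleavage of the ribosomal precursor, or have promoters of their own, none was among the 10 highest by FPKM, while SNORD118 was in place 10 of the 57 by fragments. SNORD118 (U8), which is needed for the large-subunit RNAs, had 64.2 FPKM (32.1 to 96.2) or 20.5 fragments and lies in an exon of TMEM107 at 5.19 FPKM. SNORD3A (U3), the main RNA of small-subunit processing, had 27.9 FPKM (18.4 to 37.4) over an entry of 699 bp, and SNORD3C had 1.45 FPKM (0 to 4.21). The bounds of SNORD3A stood for 34.7 fragments, more than the 20.5 of SNORD118, but its span kept it out of the 57. Both entries named SNORD3D were listed at 0, although they lie in an exon of a non-coding gene at 4.31 FPKM. These U3 entries share sequence, with SNORD3A and SNORD3C 83.0% identical over the longer span. Alignments of mapping quality under 20 had been removed, and how many U3 reads were lost in this way was not tested. SNORD13 (U13) had 8.29 FPKM (0 to 31.8), which is 0.849 fragments. Of the U14 genes, which also act in small-subunit processing, SNORD14C in HSPA8 had 403 FPKM (181 to 624), SNORD14A and SNORD14B in RPS13 had 40.2 FPKM (0 to 97.1) and 34.1 FPKM (0 to 104), and SNORD14D and SNORD14E in HSPA8 were listed at 0. The lower bound of SNORD14C lay above the upper bounds of SNORD14A and SNORD14B. SNORD118 is printed because it is the only one of these with bounds above those of a host, and it holds CTGA at its end but no TGATG in its first 20 bases.
SNORD118 (chr17:8173454-8173587, minus strand): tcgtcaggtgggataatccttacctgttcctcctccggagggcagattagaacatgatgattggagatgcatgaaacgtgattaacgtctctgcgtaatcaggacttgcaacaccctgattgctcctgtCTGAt

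The snoRNAs of imprinted regions that were looked up by name were listed at 0. This held for SNORD107, SNORD108, SNORD109A, SNORD109B and SNORD64 on chromosome 15, whose hosts had at most 1.75 FPKM, and for SNORD112 on chromosome 14 in MEG8, at 0.0754 FPKM. The value of 3 fragments at their spans was 144 to 266 FPKM. Entries that share the names SNORD64 and SNORD112 but lie on chromosomes 1, 8 and X were also listed at 0. SNORD109A and SNORD109B have 1 sequence in common, as have SNORD62A and SNORD62B. These 4 were the only ones of the 242 with a second exact copy of the whole span in the genome. All 4 were listed at 0. In all, 22 snoRNAs were at least 90% identical to another of the 242 at a different locus, of which 2 reached an FPKM of 1 and 20 were listed at 0. Identity was taken over the longer span, so that similar entries of unequal length were not counted. The U3 entries SNORD3A (699 bp), SNORD3C (581 bp) and SNORD3D (218 bp) are such a case. A further 3 pairs of entries, among them those named SNORD38B and those named SNORD3D, overlapped at 1 locus on the same strand.

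Compared with related classes, H/ACA box RNAs reached an FPKM of 1 in 107 of 421 entries (25.4%, 21.5 to 29.8) and Cajal body RNAs, which guide changes of spliceosomal RNA, in 22 of 57 (38.6%, 27.1 to 51.6), both with intervals that overlapped that of the C/D box RNAs. The 83 SNORD115 and SNORD116 copies, which are known chiefly from brain, were listed at 0. The median of those at 1 or more was 15.7 FPKM for H/ACA box RNAs and 19.4 FPKM for Cajal body RNAs, against 94.7 FPKM for C/D box RNAs, a difference of 2.52 and 2.24 on the log2(FPKM + 1) scale. In fragments H/ACA box RNAs had the higher median, 5.40 over 106 entries of at most 250 bp against 2.47 over 57 C/D box RNAs, with overlapping quartiles. The median spans of these were 134 and 80 bp. A lower bound above 0 was given for 55 H/ACA box RNAs (13.1%) and 15 Cajal body RNAs (26.3%), beside 9.50% of C/D box RNAs.

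The mRNAs of the proteins that bind, assemble and process these RNAs had narrower bounds. All 26 genes of the list had a lower bound above 0, with a median relative width of 12.8%. Of the core proteins, NOP56 had 143 FPKM (136 to 151), NOP58 61.6 FPKM, FBL 54.1 FPKM (49.0 to 59.1) and SNU13 23.4 FPKM (20.1 to 26.8). The 8 assembly factors ran from 2.27 FPKM for NUFIP1, the platform protein, to 38.9 FPKM for RUVBL2, an ATPase. The 6 factors of intron processing and trimming ran from 3.39 FPKM for DBR1, the lariat debranching enzyme, to 31.8 FPKM for EXOSC10, a nuclear exosome subunit. Of the maturation and transport factors, NOLC1 had 57.6 FPKM, PHAX 17.8 FPKM, TGS1, the cap hypermethylase, 11.8 FPKM and COIL, the Cajal body scaffold, 8.19 FPKM. The H/ACA core proteins ran from 10.5 FPKM for GAR1 to 81.2 FPKM for DKC1.

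Of the 242 snoRNAs, 0 shared a base with the 900 EZH2 RNA fragments of the deposited count tables, beside 0.611% of all entries and 0.0874% of the 8008 other entries of at most 250 bp, so that the 0 is not a result about the snoRNAs. Any EZH2 RNA fragment outside these 900 was not analysed here.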

How the data were processed

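Total RNA of K562 cells was sequenced as the input of RIP-seq, 1 library. The methods describe depletion of ribosomal RNA and stranded libraries for RIP-seq; whether the input was taken before or after isolation of nuclei was not given in the sources used here. Per the methods of the study, the authors trimmed the reads (TrimGalore), mapped them to GRCh38 with GENCODE 26 (STAR), removed duplicates (SAMtools rmdup) and alignments of mapping quality under 20, and computed FPKM values with bounds per gene (cuffdiff). Removal of duplicates can limit the fragments counted at short genes. The read counts per listed EZH2 RNA fragment were made by the authors with featureCounts, and here only the positions of these fragments were set against the snoRNAs, so the counts were not analysed further.

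From the deposited FPKM table, the entries were selected by name, and strand, exons and sequence were taken from GENCODE 44 and GRCh38, whose positions matched those of the table. The number of fragments was the FPKM divided by the value of 1 fragment at that span. This value was the median over other entries whose bounds gave a number of fragments within 0.01 of a whole one. Where no such entry had the span, the value was interpolated on the log2 scale between the nearest spans. This was so for SNORD27 (72 bp), SNORD99 (74 bp) and SNORD87 (89 bp), among others. Hosts, boxes and exact copies were found by script (Python 3.11.15, pandas 2.3.3), and the steps were tested on simulated data. With 1 library no test was made. Genes were named by rule: the 10 highest, the 5 widest and 5 narrowest bounds, the 5 highest and 5 lowest ratios to the host, all in hosts with at least 4, the RNAs of precursor cleavage, the imprinted ones and the proteins. The snoRNAs, lists and rules were chosen with earlier results of these data known. Some items are not reported here.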

Additional observations from a re-analysis of the deposited data

How the results depend on the processing

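Of the 45 alternatives tried, 32 kept the value of the result within 1.5 times (counts) or within its 95% interval (shares and medians), and 13 moved it, with no change of sign. The number of C/D box RNAs fell from 59 to 23 with a lower bound above 0. It fell to 24 with more than 3 fragments, which leaves out SNORD3A and SNORD3C, as spans over 250 bp had no fragment value. Their median FPKM, 0 over all, was 71.1 among those above 0 and 327 among those with a lower bound above 0, where the median relative width of the bounds was 51.8% in place of 174% over those above 0. The median log2 ratio to the host over all 181, −2.98, was −5.32 with 0.1 and −1.07 with 10 added to both, −3.86 over hosts with an FPKM of 1 or more, −0.46 over snoRNAs above 0 and −0.24 over those at 1 or more. The number above the host rose from 11 to 20 with a 2-fold difference in place of the bounds, and the number below fell from 20 to 13 with the exact Poisson interval. The share with both boxes rose from 46.3% to 63.6% with TGATG. The alternatives by fragments, by Poisson interval and by TGATG were chosen after seeing the data, as were those at an FPKM of 1 or more for ratios and pairs and at 10 for proteins.

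No paired analysis was possible because 1 library without replicate gave all values. The depth limits what can be said of spans under 80 bp, where 3 fragments are worth more than 120 FPKM.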
